A study of Mus musculus with 384 samples.

Results

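Of 384 tdTomato-sorted single cells, 181 were rich in Th RNA and sequenced deeply enough to be classed by Slc17a6, and 93 of these were Slc17a6-positive while 88 were Slc17a6-negative. Cells entered with at least 500000 reads assigned to genes (209 cells) and at least 1000 CPM of Th (CPM, the reads of a gene per 1000000 reads of its cell), and a cell was positive from 10 Slc17a6 reads upward. The cells came from 8 DAT-IRES-Cre;Ai9 mice of strain C57BL6/J aged P24 to P36, in which Cre made from the dopamine transporter gene switches on the red reporter tdTomato, so any cell that ever used that gene is labelled. The sample labels give 3 females (mice 1, 4 and 6) and 5 males, whereas the series description counts the sexes differently, and the labels were used. Midbrain tissue that included hypothalamus was dissociated, red and propidium iodide-negative cells were sorted, and each mouse filled its own Fluidigm C1 microfluidic chip, so a chip run and an animal cannot be told apart. All cells were untreated, their positions in the tissue were not recorded, and each animal gave cells to both groups. The unit of comparison is the mouse: the reads of its positive cells and of its negative cells were each summed, and all 8 mice had at least 3 cells on either side.

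Slc17a6 (chr7:51621830-51671126, GRCm38) encodes VGLUT2, the vesicular transporter that loads glutamate into synaptic vesicles. Dopamine neurons make dopamine from tyrosine through tyrosine hydroxylase (Th, chr7:142892779-142899995) and Ddc, load it with VMAT2 (Slc18a2) and take it back up through DAT (Slc6a3). Some midbrain dopamine neurons, best known from the medial ventral tegmental area (VTA), also carry VGLUT2 and release glutamate at part of their terminals, while most dopamine neurons of the neighbouring SNc (substantia nigra pars compacta) lack it in the adult. RNA of the transporter gene is what was counted here, and release itself was not measured.

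The 2 groups were selected on Slc17a6, Th and total reads, and these values are given as a description. Slc17a6-positive cells held 10 to 1395 Slc17a6 reads with a median of 169, and negative cells held 0 to 7. The positive cells spanned more than a 100-fold range of Slc17a6 reads, and 60 of the 88 negative cells had none. Around the threshold, 28 negative cells had 1 to 9 reads and 18 positive cells had 10 to 49, with the highest negative cell at 7 reads and the lowest positive cell at 10. Th was at a median of 6813 CPM in positive cells and 7044 CPM in negative cells, over all cells without regard to the animal. The means of the mice stood in the other order, with a median of 7822 CPM (4351 to 11110) in positive and 5965 CPM (4792 to 11590) in negative cells.

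**Figure D1:**
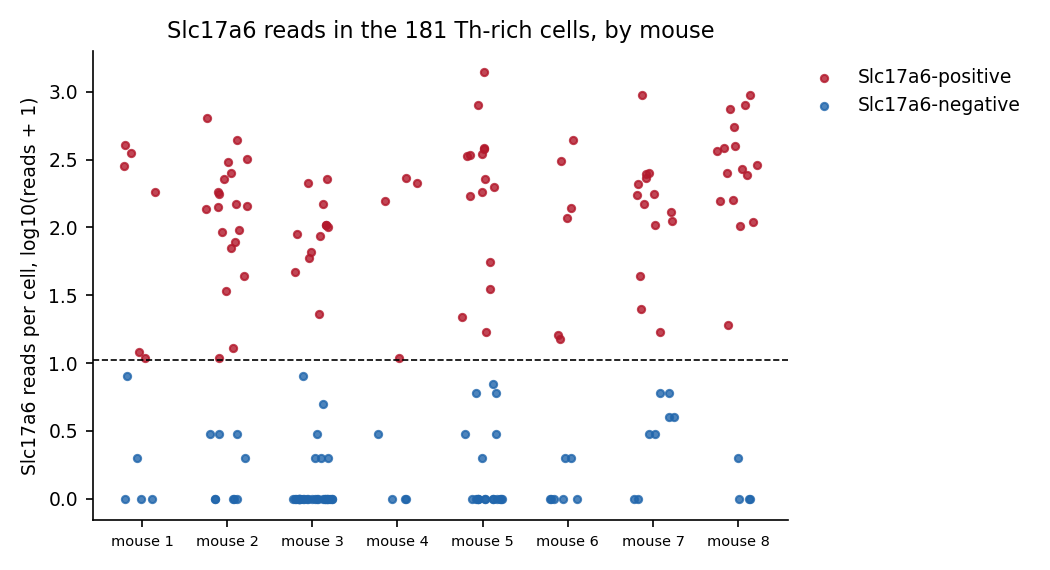
Slc17a6 reads per cell on a log10(reads + 1) axis, by mouse, with 1 point a cell, red for the 93 Slc17a6-positive and blue for the 88 Slc17a6-negative cells. The dashed line is the threshold of 10 reads, and each mouse has cells on both sides of it.

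Markers of midbrain dopamine neurons were found in both groups. All 181 cells had at least 10 reads of Slc6a3 and of Ddc, and 180 had at least 10 reads of Slc18a2. En1, a transcription factor of midbrain dopamine neurons, was found at that level in 95.7% of positive cells (exact 95% binomial interval 89.3 to 98.8%) and in 95.5% of negative cells (88.8 to 98.7%). Nr4a2, which these neurons need for their dopamine genes, was found in 100% and 95.5%. Other factors of these neurons reached 10 reads in fewer cells, Foxa2 in 43.0% of positive and 38.6% of negative cells, Lmx1b in 22.6% and 20.5%, and Pitx3 in 16.1% and 17.0%. These intervals, here and below, hold the counting error alone. The summed level of 8 astrocyte markers was 352.5 to 1184 CPM (median 528.2) in the positive sums and 227.9 to 816 CPM (median 473.7) in the negative sums. Aldoc and Slc1a2 made up much of this sum, Slc1a2 with a mean over mice of 420.3 CPM in positive and 335.1 CPM in negative sums, while Gfap and Aqp4 had no read in positive cells. Oligodendrocyte-lineage markers summed to 19.8 to 108 CPM (median 38.7) in positive and 0 to 100.2 CPM (median 6.21) in negative sums, Mog, Pdgfra and Cspg4 had no read in either group, and Olig1 and Olig2 had none in negative cells. Microglia and vessel markers summed to at most 4.06 CPM in any sum, and 7 of these 12 genes, among them C1qa and Cldn5, had no read in either group. The summed level of 32 hypothalamic and neighbouring region factors was 0 to 37.6 CPM (median 6.59) in positive and 2.29 to 388.5 CPM (median 18.1) in negative sums. The part of the astrocyte, oligodendrocyte and neighbouring region markers in the differences below was not tested.

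The share of Th-rich cells that were Slc17a6-positive differed widely between animals. It was 27.3% in mouse 3 (12 of 44 cells), between 44.1% and 69.0% in 6 mice, and 80.0% in mouse 8 (16 of 20 cells). The 3 females lay between 46.2% and 54.5% and the 5 males between 27.3% and 80.0%, so the sexes overlapped, and the means of 50.2% ± 4.20 (SD, n = 3) and 56.8% ± 21.0 (SD, n = 5) gave p = 0.625 (exact permutation test, two-sided, smallest possible p 0.0179). The 3 mice run on chips labelled LARGE (mice 3, 4 and 5) had 27.3%, 50.0% and 44.1%, and the 5 mice on MEDIUM chips had 46.2% to 80.0%. Chip size is thus spread unevenly over the shares, and its part was not tested.

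Mean reads per cell, which the choice of cells used and which are given with no test, ranged over mice from 639000 to 924800 in positive cells and from 710400 to 920400 in negative cells, and positive cells had more reads in 3 of 8 mice. The mean difference was -14100 reads ± 48810 (SD, n = 8). Detected genes differed by 8.68 per cell ± 547 (SD over 8 mice; exact sign-flip permutation p = 0.969, two-sided) and cDNA by -0.197 ng/µl ± 1.299 (SD over 8 mice; exact p = 0.977). Benjamini-Hochberg adjusted values of both were 0.977. Over all cells, without regard to the animal, median detected genes were 8956 in positive and 9643 in negative cells. Mouse 3 supplied 32 of the 88 negative cells.

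Across the transcriptome, 0 of 11807 genes (0%) passed an adjusted p of 0.05 in the edgeR quasi-likelihood test on the summed counts, Slc17a6 left out. At an unadjusted p under 0.05 the same test listed 595 genes (5.04% of those tested), 323 higher and 272 lower in positive cells. The smallest adjusted p was 0.0597, for Htr2c. Other tools on the same mice called some genes. DESeq2 called 26 (0.22%), 21 higher (0.178%) and 5 lower (0.0423%). Limma on the mean log2(CPM + 1) of the cells, in which the cells of a mouse and group count equally, called 25 (0.212%), 24 higher (0.203%) and 1 lower (0.00847%). With the mouse as a block, edgeR called 0 and limma called 36 (0.305%), 25 higher (0.212%) and 11 lower (0.0932%), of which 20 were shared with limma without it. DESeq2 and limma without block shared 7 genes, and all 7 were also called by limma with the block. Values below are therefore given as measured levels, with calls by DESeq2 or by limma without block named where there were any, and the planned edgeR test called none of them. Of the genes named below, limma with the block called all those that limma without it called, and also Cbln4, Cplx1, Cplx2, Fgf10, Hpcal1, Igf1, Ndnf, Nptx1 and Vsnl1. Log2 fold changes are positive minus negative, with the edgeR standard error (SE) and adjusted p. These edgeR values, and those of DESeq2 and limma without block, came from fits without a term for the mouse. Such fits compare the groups over mice and leave the pairing within animals unused.

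The 10 genes with the smallest edgeR p among those higher in positive cells in all 8 mice, at a mean of at least 10 CPM, are given first. All-mouse agreement was found for 0.94% of genes tested in this direction. Htr2c (chrX:146962464-147197277), the serotonin 2C receptor, ranged over mice from 15.6 to 111 CPM (median 60.8) in positive cells and from 0 to 7.20 CPM (median 1.89) in negative cells. The ranges did not overlap, and the log2 fold change was 4.50 ± 0.72 (SE). The edgeR adjusted p was 0.0597, the DESeq2 adjusted p 5.9e-10 and the limma adjusted p 0.0186. Separate ranges are a description, here and below, since these genes were chosen by small p and agreement over mice. How many of all genes tested had separate ranges was not counted. Htr2c reached 10 reads in 34 of 93 positive cells and 4 of 88 negative cells.

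Nrp2 (chr1:62703317-62818692) encodes neuropilin 2, a co-receptor for class 3 semaphorins in axon guidance. It was at 2.95 to 47.5 CPM (median 24.3) in positive cells and 0.181 to 3.98 CPM (median 1.11) in negative cells, so that only the lowest positive sum lay within the negative range. Its log2 fold change was 3.95 ± 0.69 (SE; edgeR adjusted p = 0.0955), and DESeq2 (adjusted p = 2.17e-07) and limma (adjusted p = 0.0225) called it. Mc3r, the melanocortin 3 receptor, was at 6.79 to 104 CPM (median 48.2) against 0 to 10.8 CPM (median 0.921), where the lowest positive sum again lay below the highest negative one. Its log2 fold change was 4.41 ± 0.97 (SE; edgeR adjusted p = 0.325), and both other tools called it. Rmst, a long non-coding RNA, was at 17.3 to 55.0 CPM (median 34.2) against 0.271 to 11.2 CPM (median 5.90). These ranges were also separate, with a log2 fold change of 2.62 ± 0.59 (SE; edgeR adjusted p = 0.333) and calls by DESeq2 and limma.

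Crhbp, the binding protein of corticotropin-releasing hormone, spread far more among animals. Its positive sums ran from 0.403 to 478 CPM (median 86.1) and its negative sums from 0 to 5.55 CPM (median 0.235), with a log2 fold change of 6.62 ± 1.24 (SE; edgeR adjusted p = 0.135). DESeq2 called Crhbp and limma did not, and it reached 10 reads in only 16 of 93 positive cells and 2 of 88 negative cells. Fgf10, a secreted growth factor, was at 5.21 to 204 CPM (median 42.1) against 0 to 11.8 CPM (median 0.398; log2 fold change 4.32 ± 0.99 SE). Bcl11a, a zinc finger transcription factor, was at 38.28 to 188 CPM (median 62.8) against 0.382 to 37.9 CPM (median 18.1; log2 fold change 2.102 ± 0.54 SE), without overlap. DESeq2 called Fgf10 and Bcl11a. The list was completed by Ctsz (cathepsin Z, a lysosomal protease), Rcn1 (a calcium-binding protein of the endoplasmic reticulum) and Elmo1 (an adaptor for Rac signalling), with log2 fold changes of 4.03, 3.30 and 1.48 and edgeR adjusted p of 0.618, 0.633 and 0.633. DESeq2 called all 3, and limma called Ctsz and Rcn1.

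In the other direction the named genes were higher in negative cells in all 8 mice, as were 0.847% of genes tested. Igf1, insulin-like growth factor 1, was at 5.23 to 127 CPM (median 28.8) in positive cells and 32.6 to 567 CPM (median 239.6) in negative cells. Its groups overlapped, but each mouse had the higher value in its negative cells (log2 fold change -2.48 ± 0.58 SE; edgeR adjusted p = 0.417), and DESeq2 called it. Ndnf, a secreted neurotrophic factor, was at 0.227 to 60.2 CPM (median 10.9) against 23.0 to 199.6 CPM (median 69.8; log2 fold change -2.42 ± 0.68 SE; edgeR adjusted p = 0.663). Cplx1, a complexin that clamps and speeds vesicle fusion, was at 181 to 1608 CPM (median 581) against 811 to 2825 CPM (median 1717; log2 fold change -1.32 ± 0.35 SE; edgeR adjusted p = 0.633). DESeq2 called Ndnf and Cplx1, and so did limma with the mouse as a block.

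The remaining genes named for their small p in this direction were Ssbp2 (log2 fold change -0.90), Atp6v1g1, a subunit of the proton pump that acidifies vesicles (-0.51), Lhfp (-1.91), Atp2b2, a plasma membrane calcium pump (-0.68), Dnajb11, a chaperone of the endoplasmic reticulum (-0.97), Nptx1, a neuronal pentraxin (-1.39), and Slc6a3. The ranges of these 7 genes overlapped between the groups only in part, as for Atp2b2 with 322 to 776 CPM (median 474.8) in positive and 583 to 1136 CPM (median 789.2) in negative cells. DESeq2 called Ssbp2, and limma with the mouse as a block called Nptx1.

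**Figure D2:**
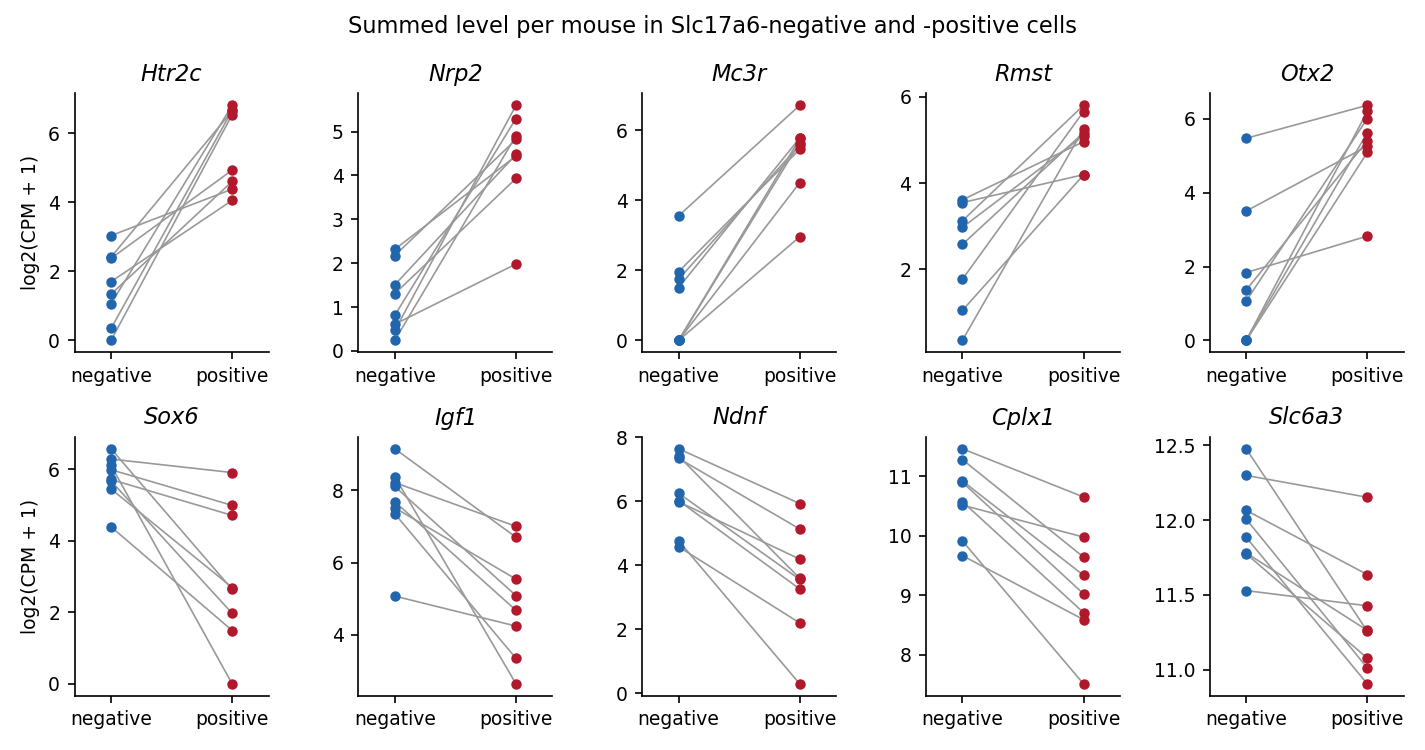
Summed levels per mouse, as log2(CPM + 1) after TMM scaling, in Slc17a6-negative (blue) and Slc17a6-positive (red) cells for 10 genes, with a line joining the 2 sums of each of the 8 mice. For Htr2c and Rmst the groups do not overlap.

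Genes used to tell VTA from SNc dopamine neurons were set out in 2 lists. Of 21 VTA-type markers, 16 passed the filter on low counts, 14 of these had a log2 fold change above 0, and the median was 1.18 against -0.02 for all 11807 genes. Of 22 SNc-type markers, all 22 passed, 20 had a log2 fold change below 0, and the median was -0.62. At an unadjusted p under 0.05 edgeR listed 8 of the 16 (7 higher, 1 lower) and 9 of the 22 (9 lower), against 5.04% of all genes, and 0 in either list after adjustment. DESeq2, which called 0.22% of all genes, called 0 of the VTA list and 2 of the SNc list (both lower). Limma, with 0.212% of all genes, called 3 of the VTA list (all higher) and 1 of the SNc list (lower), and limma with the block, with 0.305% of all genes, called 4 (all higher) and 3 (all lower). The VTA-type markers below 0 were Lypd1, which modulates nicotinic receptors and is also found in SNc neurons (-2.13), and Efnb3 (-0.15), and the SNc-type markers above 0 were Tacr3 (0.37) and Cbln1 (0.42). Lists of marker genes were drawn up with results of these cells known, so their direction is a description.

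Otx2 (chr14:48656781-48667644), a homeobox factor of VTA dopamine neurons, was at 6.10 to 81.8 CPM (median 45.0) in positive and 0 to 43.6 CPM (median 1.34) in negative cells. It was higher in positive cells in all 8 mice (log2 fold change 2.69 ± 1.00 SE; edgeR adjusted p = 0.96), and limma called it (adjusted p = 0.00961). Lpl, lipoprotein lipase, was at 76.3 to 240 CPM (median 153.0) against 0 to 164 CPM (median 34.7; log2 fold change 1.82 ± 0.80 SE), and Adcyap1, the neuropeptide PACAP, was at 49.5 to 263 CPM (median 85.7) against 0 to 57.0 CPM (median 10.3; log2 fold change 2.88 ± 0.78 SE). Limma called both. Neurod6, a bHLH transcription factor, was at 0 to 111 CPM (median 53.9) against 0 to 19.7 CPM (median 6.74; log2 fold change 3.07 ± 0.97 SE). Cbln4, a cerebellin that organizes synapses, was at 42.3 to 267 CPM (median 144) against 0 to 86.1 CPM (median 32.7; log2 fold change 2.09 ± 0.80 SE). In mouse 7 the negative cells stood apart for Otx2 (43.6 CPM), Lpl (164 CPM) and Adcyap1 (57.0 CPM).

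Sox6 (chr7:115470872-116040776), a transcription factor of SNc dopamine neurons, ran the other way. It was at 0 to 59.1 CPM (median 5.35) in positive cells and 20.0 to 94.3 CPM (median 57.0) in negative cells, lower in all 8 mice (log2 fold change -1.82 ± 0.75 SE; edgeR adjusted p = 0.976; limma adjusted p = 0.0313). Aldh1a7, an aldehyde dehydrogenase, was at 1.60 to 138 CPM (median 44.0) against 0.789 to 493 CPM (median 211.5; log2 fold change -1.99 ± 0.87 SE), while its relative Aldh1a1 had a log2 fold change of -0.20 ± 0.39 (SE), higher in positive cells in 4 of 8 mice.

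**Figure D3:**
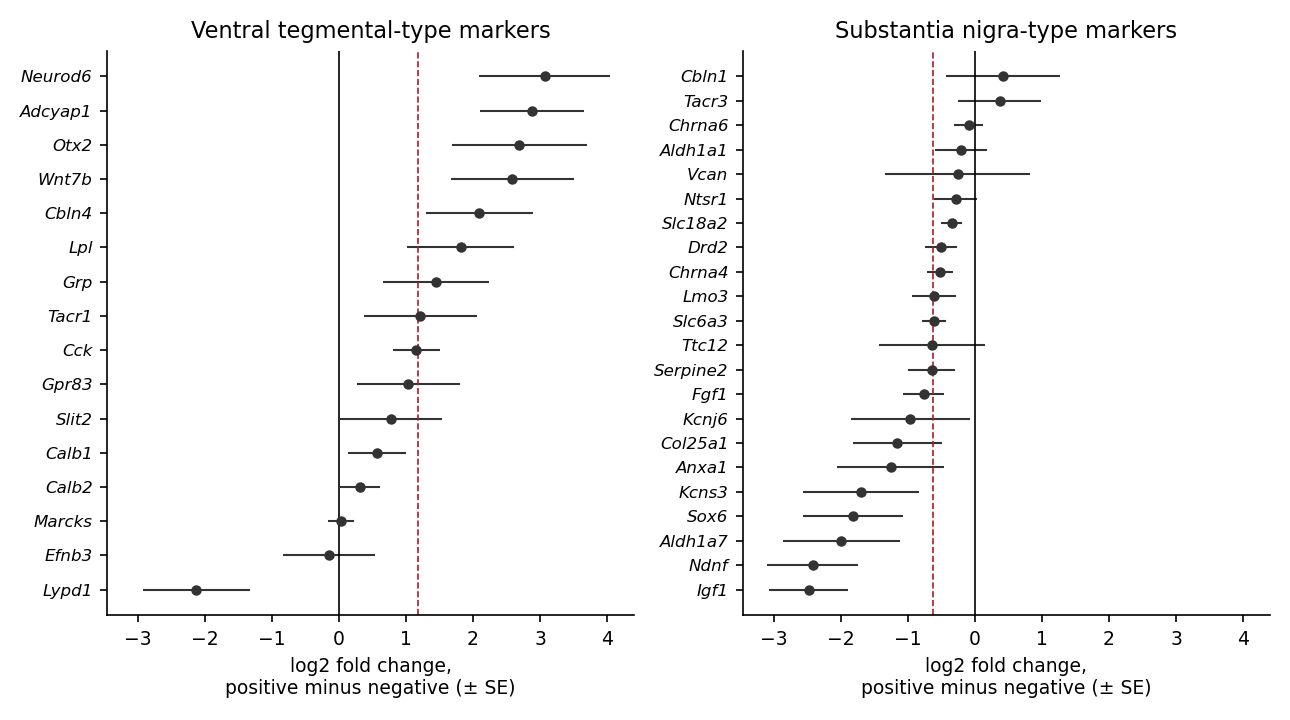
edgeR log2 fold changes, Slc17a6-positive minus Slc17a6-negative, with SE bars, for the 16 VTA-type and 22 SNc-type markers that passed the filter. The dashed red line is the median of each list, 1.18 and -0.62, and the solid line is 0.

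Cells with these markers were also counted. A cell was counted for a gene from 10 reads, and the shares were compared within mice. Otx2 was found in 46.2% of positive cells (43 of 93; 35.8 to 56.9%) and 4.55% of negative cells (4 of 88; 1.25 to 11.2%), and the difference within mice averaged 40.1 percentage points ± 13.7 (SD, n = 8; exact sign-flip permutation p = 0.00781, the smallest that 8 mice allow). Sox6 was found in 17.2% of positive cells (16 of 93; 10.2 to 26.4%) and 64.8% of negative cells (57 of 88; 53.9 to 74.7%), a difference of -45.7 points ± 21.8 (SD, n = 8; same exact p). Both held in 8 of 8 mice. Such agreement in all 8 mice was found for 84 of 11727 genes with at least 10 counted cells (0.716%), 42 in each direction (0.358%). At an unadjusted p under 0.05 there were 683 genes (5.82%). The smallest p adjusted over all of these genes was 0.689. With no p below 0.00781, a gene could pass this adjustment only if far more than 84 genes shared that smallest p. The adjusted values therefore cannot decide on single genes.

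The 28 partner genes compared in this way were chosen with earlier results of these data known. Of them, 9 had an exact p under 0.05 before adjustment, against 5.82% of all genes counted. Besides Otx2 and Sox6, these were Lpl (44.3 points higher in positive cells, 7 of 8 mice), Cbln4 (40.5 points, 7 of 8), Neurod6 (26.0 points, 7 of 8 with the other equal), Gpr83, a G protein-coupled receptor (17.0 points, 6 of 8), Calb1, the calcium buffer calbindin (15.0 points, 6 of 8), Ndnf (-26.5 points, lower in 7 of 8) and Aldh1a7 (-24.5 points, lower in 6 of 8). The exception for both Lpl and Cbln4 was mouse 1, with 33.3% of 6 positive cells and 40.0% of 5 negative cells. Without mice 4 and 8, which had 4 negative cells each, 4 of these genes (Otx2, Sox6, Neurod6 and Ndnf) stayed under 0.05, where 6 mice allow no p below 0.0312. The others then differed by 36.1 points (Lpl), 35.3 points (Cbln4), 20.5 points (Gpr83), 15.8 points (Calb1) and -20.2 points (Aldh1a7). Grp, a peptide of VTA neurons, differed by 12.5 points ± 33.7 (SD, n = 8; exact p = 0.375), and Cck, cholecystokinin, by 8.86 points ± 27.4 (SD, n = 8; exact p = 0.391), with mice on both sides of 0. Single mice moved both values, to 2.65 points for Grp without mouse 8 and to 2.98 points for Cck without mouse 7.

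**Figure D4:**
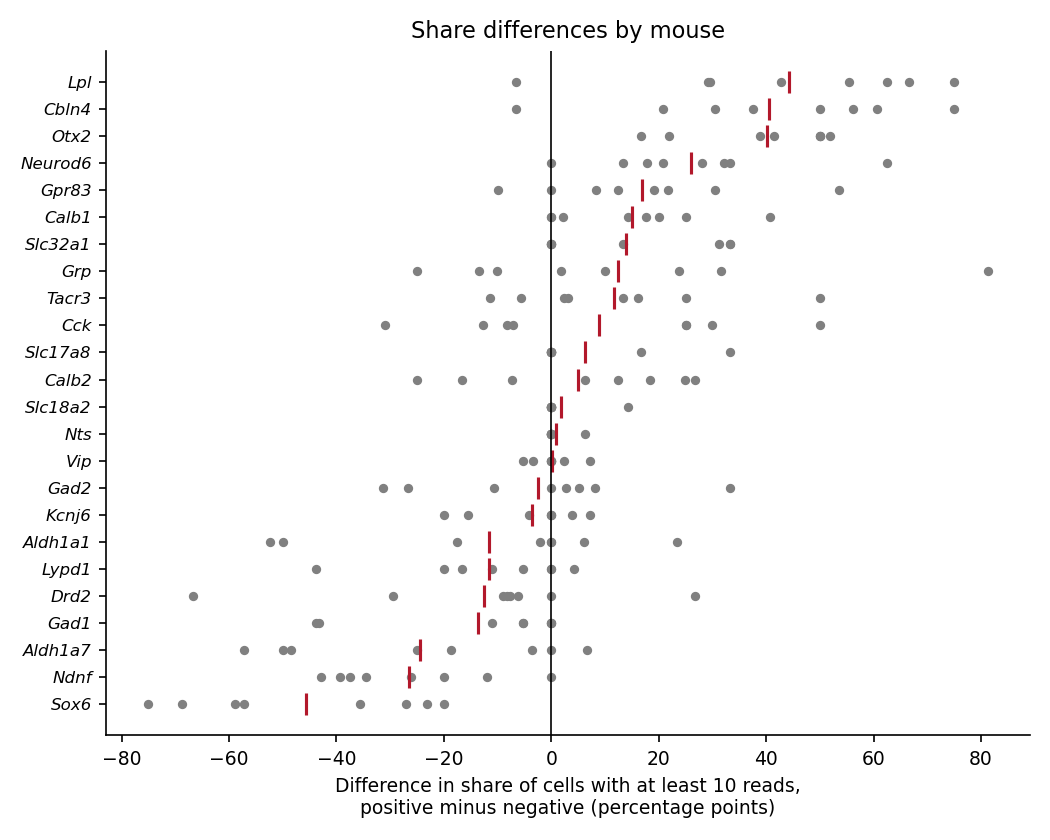
Difference in the share of cells with at least 10 reads of a partner gene, Slc17a6-positive minus Slc17a6-negative, in percentage points, with a grey point for each of 8 mice and a red bar for their mean. All points of Otx2 lie above 0 and all points of Sox6 below it, whereas Grp, Cck and Gad2 have mice on both sides.

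Read from the marker side, 43 of the 47 cells with Otx2 were Slc17a6-positive (91.5%; 79.6 to 97.6%), as were 39 of 49 with Neurod6 (79.6%), 56 of 69 with Lpl (81.2%) and 63 of 79 with Cbln4 (79.7%). Among the 73 cells with Sox6, 16 were positive (21.9%; 13.1 to 33.1%). Otx2 and Sox6 were together in 3 of 181 cells, all of them Slc17a6-positive. Even so, 37 of 93 positive cells (39.8%) and 27 of 88 negative cells (30.7%) had neither gene at 10 reads, and 13 positive cells from 5 mice had Sox6 without Otx2.

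The shares were also set out by the amount of Slc17a6. Otx2 was found in 1 of 60 cells with no Slc17a6 read (1.67%), 3 of 28 with 1 to 9 reads (10.7%), 6 of 18 with 10 to 49 reads (33.3%) and 37 of 75 with 50 or more (49.3%). Sox6 was found in 70.0%, 53.6%, 33.3% and 13.3% of the same cells. Lpl went from 11.7% through 21.4% and 44.4% to 64.0%. These 3 genes went one way over all 4 classes, as did Cbln4 (13.3%, 28.6%, 50.0% and 72.0%) and Ndnf (63.3%, 46.4%, 27.8% and 14.7%). Igf1 and Neurod6 did so too, with little change below the threshold. Igf1 was at 83.3% and 82.1% below it and 55.6% and 44.0% above it. Neurod6 was at 10.0% and 14.3% below and 38.9% and 42.7% above it. Aldh1a7 had no steady order (61.7%, 42.9%, 50.0% and 21.3%). Median reads per cell in these 4 classes were 726100, 845800, 815200 and 789400, the class of 10 to 49 reads had only 18 cells, and cells of a class share animals, so no test was made.

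**Figure D5:**
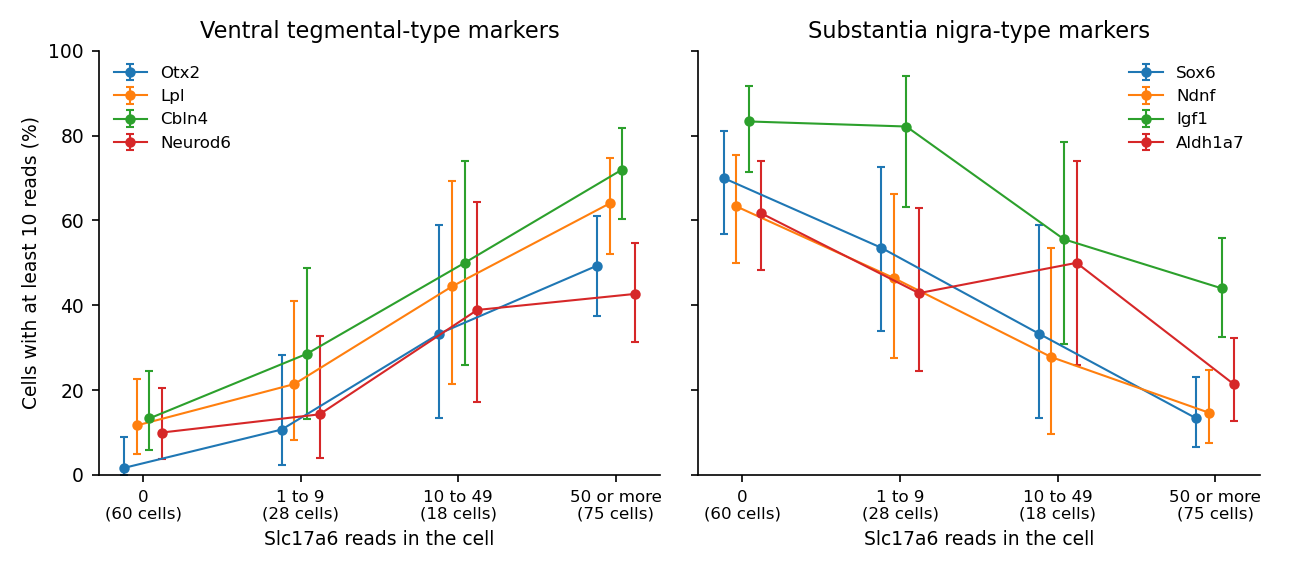
Share of cells with at least 10 reads of a marker, in percent, in 4 classes of Slc17a6 reads (60, 28, 18 and 75 cells), with exact 95% binomial intervals that cover counting error only. Otx2, Lpl, Cbln4 and Neurod6 stand highest in the class with 50 or more reads, and Sox6, Ndnf, Igf1 and Aldh1a7 stand lowest there.

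Among the other vesicular transporters, Slc17a7 (VGLUT1) reached 10 reads in 0 of 93 positive and 0 of 88 negative cells, which allows shares of up to 3.23% and 3.41% (the limit that 3 counts of the total set). Slc17a8 (VGLUT3) reached 10 reads in 3 of 93 positive cells, from 2 mice, and in 0 of 88 negative cells. Slc32a1 (VGAT), the vesicular GABA transporter, reached 10 reads in 11 of 93 positive cells (11.8%; 6.06 to 20.2%) and 0 of 88 negative cells. The 11 cells came from mice 1, 5, 6 and 8, where 13.3% to 33.3% of positive cells had it, and the other 4 mice had none. The difference within mice was 13.9 points ± 16.2 (SD, n = 8; exact sign-flip permutation p = 0.125). With a difference in only 4 mice, all of them higher, this test can give no smaller p. Of these 11 cells, 8 also had at least 10 reads of Gad1 or Gad2, the enzymes that make GABA.

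Gad2 was at 1.21 to 1063 CPM (median 261) in positive sums and 1.81 to 151 CPM (median 31.1) in negative sums (log2 fold change 3.11 ± 0.98 SE; edgeR adjusted p = 0.759; higher in 6 of 8 mice). It reached 10 reads in 21 of 93 positive cells (22.6%) and 12 of 88 negative cells (13.6%), and the difference within mice was -2.40 points ± 20.6 (SD, n = 8; exact p = 0.812), higher in 4 mice and lower in 3. That value had no stable sign, with -7.51 points without mouse 6, 1.06 without mouse 1 and 1.72 without mouse 8. Gad1 was at 0 to 3.63 CPM in positive sums and 0 to 666 CPM in negative sums, and reached 10 reads in 3 of 93 positive and 8 of 88 negative cells (exact p = 0.0625). The share was lower in positive cells in 5 mice and higher in 0, where this test can give no smaller p. Gad1 did not pass the filter on low counts. Of the 6 tested genes of GABA handling, only Gad2 had a log2 fold change above 0, 5 were below 0, the median was -0.24, and no tool called any. The negative sums also held more of the neighbouring region factors given above in their highest mouse, and the part of these in the Gad1 values was not tested.

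Over the 19 tested genes of dopamine synthesis and handling the median log2 fold change was -0.17, with 12 below 0. At an unadjusted edgeR p under 0.05 there were 4 of the 19, all lower (21.1%, against 5.04% of all genes), 3 were lower in all 8 mice (against 0.847% of all genes), and no tool called a gene of this list. Slc6a3 was at 1916 to 4552 CPM (median 2451) in positive and 2954 to 5700 CPM (median 3947) in negative cells, lower in all 8 mice (log2 fold change -0.61 ± 0.18 SE; edgeR adjusted p = 0.701). Slc18a2 was at 1398 to 2406 CPM (median 1590) against 1533 to 2607 CPM (median 2250; log2 fold change -0.35 ± 0.16 SE), and Drd2, the D2 autoreceptor, at 70.5 to 163 CPM (median 85.9) against 70.9 to 185 CPM (median 149.4; log2 fold change -0.51 ± 0.23 SE). Both were also lower in all 8 mice, with overlapping ranges, and no tool called any of the 3. Ddc had a log2 fold change of -0.17 ± 0.20 (SE), lower in 5 of 8 mice.

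Genes for handling glutamate other than the transporter showed no common direction. Of 13 tested genes, 7 had a log2 fold change above 0 and the median was 0.02, and 1, Slc17a8 (3.56 ± 1.03 SE), had an unadjusted edgeR p under 0.05 (7.69%, near the 5.04% of all genes). Of 21 glutamate receptor genes, 12 were above 0 with a median of 0.15, and 4 (19.0%) had an unadjusted edgeR p under 0.05, 2 higher and 2 lower, among them Grik1 on the lower side (-1.28 ± 0.56 SE). Grin3a, an NMDA receptor subunit, had a log2 fold change of 1.70 ± 0.56 (SE) and Grm8, a presynaptic metabotropic receptor, of 2.98 ± 1.15 (SE), each higher in 7 of 8 mice and called by no tool.

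Among 35 tested genes of presynaptic release, 23 had a log2 fold change below 0, the median was -0.15, and 9 (25.7%, against 5.04% of all genes) had an unadjusted edgeR p under 0.05 (6 lower, 3 higher). Both complexins were lower in positive cells, Cplx1 as above and Cplx2 at -0.78 ± 0.23 (SE; lower in 7 of 8 mice), and limma with the mouse as a block called the pair. Rab3c, a vesicle GTPase, had a log2 fold change of -0.75 ± 0.29 (SE). On the other side stood the calcium sensor Syt2 (3.22 ± 0.88 SE, at a median of 5.38 CPM in positive cells) and the plasma membrane SNARE protein gene Stx1a (1.06 ± 0.32 SE), each higher in 7 of 8 mice.

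Of 20 tested transcription factors of midbrain dopamine neurons, 14 had a log2 fold change above 0 with a median of 0.23, and 5 (25.0%, against 5.04% of all genes) had an unadjusted edgeR p under 0.05, namely Otx2, Neurod6, Bcl11a and Ebf3 on the higher side and Sox6 on the lower. Of 23 pacemaking and autoreceptor channel genes, 13 were above 0 with a median of 0.13, and of 10 nicotinic receptor and modulator genes 5 were, with a median of -0.03. Their shares at an unadjusted edgeR p under 0.05 were 17.4% and 30.0%. No tool called a channel or nicotinic gene.

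Of 14 tested calcium-binding genes, 8 were above 0, and Necab1 (1.32 ± 0.41 SE; limma adjusted p = 0.00961) and Hpcal1 (1.21 ± 0.39 SE) were opposite to Vsnl1 (-0.73 ± 0.23 SE), visinin-like 1. Of 24 synapse organizers, 13 were above 0 with a median of 0.02, with Cbln4 on the higher side and Slitrk4 (-0.93 ± 0.30 SE) and Clstn2 (-0.90 ± 0.38 SE) on the lower, both in 8 of 8 mice. Of 30 axon guidance genes, 15 were above 0 and 15 below, and besides Nrp2 the one higher in all 8 mice was Sema5a (1.16 ± 0.48 SE), a semaphorin. Of 13 tested neuropeptide genes, 6 were above 0 and 5 (38.5%, against 5.04% of all genes) had an unadjusted edgeR p under 0.05, with Adcyap1, Nxph3 and Cck higher and Cartpt (-2.60 ± 1.10 SE) and Gal (-3.12 ± 1.45 SE) lower. Limma called Adcyap1 and Nxph3, a neurexophilin (3.07 ± 0.99 SE). Wnt7b, a secreted Wnt ligand, was higher in positive cells in 8 of 8 mice (2.59 ± 0.91 SE; edgeR adjusted p = 0.954).

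Immediate early and stress genes respond to activity and to dissociation. All 14 tested genes had a log2 fold change below 0 with a median of -0.29, and 0 had an unadjusted edgeR p under 0.05. Its summed level was 2764 to 4229 CPM in positive and 3253 to 4967 CPM in negative sums, and its part in the other differences was not tested.

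Differences were also computed within narrower sets of cells, chosen after the data had been seen. Without cells that had at least 10 reads of Sox6 or Aldh1a7, 5 mice kept 3 cells a side, and the log2 fold change was 2.34 for Htr2c, 2.84 for Mc3r, 6.49 for Crhbp and -1.71 for Igf1. In the same set Ctsz was at 0.52, Elmo1 at 0.83, Bcl11a at 1.22, Otx2 at 0.89, Cbln4 at 0.22 and Lpl at -0.11, and the edgeR adjusted p of all these genes was 0.588 for Crhbp and 0.9998 for the others. Without cells that had at least 10 reads of Otx2 or Neurod6, 7 mice were left, and Htr2c was at 6.00, Mc3r at 2.93, Cbln4 at 2.97, Igf1 at -1.79 and Sox6 at -0.77. Lower values than in the main comparison were found there for Adcyap1 (0.89), Bcl11a (1.24) and Elmo1 (0.84). The edgeR adjusted p was 0.347 for Htr2c and 0.9996 for the other genes given for this set. edgeR called 0 genes in the first set (331 at an unadjusted p under 0.05) and 1 in the second, Cbln2, another cerebellin.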

How the data were processed

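The authors sorted tdTomato-positive midbrain cells, made cDNA on the Fluidigm C1 (wells with doublets were excluded by eye), aligned reads to GRCm38 with TopHat2 2.1.1 after trimming with Trimmomatic 0.3.2, and counted reads per RefSeq gene with featureCounts 1.5.0-p3, leaving out reads that hit more than 1 gene. The deposited values are these raw counts, without molecular identifiers, for 384 cells and 47082 entries, of which 5721 held no counts. Spike-in and transgene entries (0.00325% of reads) were left out of the totals. Strand use in counting was not given in the sources used here.

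Cells, marker lists and partner genes were chosen with earlier results of these data known. Counts were summed per mouse and group, filtered with filterByExpr (11807 genes kept besides Slc17a6), scaled by TMM and tested with edgeR 4.0.16 (quasi-likelihood, Benjamini-Hochberg over all genes, threshold 0.05). Alternatives were DESeq2 1.42.0, limma 3.58.1 on mean log2(CPM + 1) of cells, other thresholds, depth thinning, and subsets of cells or mice. Shares of cells were compared by exact sign-flip permutation over mice and adjusted over all 11727 genes counted in at least 10 cells; adjustment over the partner genes alone is not given. The 2 sums of a mouse pair by animal, which the fits without block did not use. Correlations of their deviations from the group means were 0.0244 to 0.290. Scripts were tested on simulated data.

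Named genes were Slc17a6, Th, genes of the lists and partner genes, and, since 0 genes passed, up to 10 per direction with the smallest unadjusted p, the same direction in every mouse and a mean of at least 10 CPM over mice in the higher group; these are given as values, not as changes. Coordinates are from RefSeq on GRCm38.p6.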

Additional observations from a re-analysis of the deposited data

Results flagged for a closer look

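Of 53 sets of 8 per-mouse values given in the report, 8 had a mouse that stood apart from the others by Dixon's 95% criterion, where chance flags about 1 set in 20. In Slc17a6-negative cells these were Mc3r in mouse 1 (10.8 CPM) and, in mouse 7, Otx2 (43.6 CPM), Lpl (164.2 CPM) and Adcyap1 (57.0 CPM). In Slc17a6-positive cells they were Fgf10 (204.2 CPM), Bcl11a (188.1 CPM) and Adcyap1 (263.4 CPM), all in mouse 4, which had 4 positive cells. The difference in cDNA was -3.31 ng/µl in mouse 5, positive minus negative.

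An entry of the count table that enters no comparison, CreER, had a read in 128 of the 181 cells: 57 of 93 positive cells (61.3%) and 71 of 88 negative cells (80.7%). The eGFP entry had no read in either group.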

How the results depend on the processing

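The count of 0 genes called by edgeR became 26 with DESeq2, 25 with limma on mean log2 CPM, 36 with limma and the mouse as replicate block (added after seeing the data), 4 with a threshold of 1 Slc17a6 read and 2 with negative cells limited to 0 reads (Htr2c and Nrp2), both over 7 mice since mouse 7 kept 2 negative cells, 2 with Th from 100 CPM (the same 2 genes), 1 after thinning to 500000 reads (Htr2c) and 1 without Otx2 or Neurod6 cells (added after seeing the data). Leaving out 1 mouse gave 0 to 3 genes: 3 without mouse 1, 1 without mouse 2 and 1 without mouse 4. It stayed at 0 with the mouse as replicate block in edgeR (768 genes at an unadjusted p under 0.05), DESeq2 size factors, no filter, a threshold of 50 reads, Th from 3000 CPM, 5 cells a side, Slc6a3 from 100 CPM, no Gad1 or Gad2 cells, no Sox6 or Aldh1a7 cells, and within each C1 machine or lane. A sex-by-group term called 0 genes in edgeR (820 at an unadjusted p under 0.05). The cause of these differences between tools was not tested.

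Of 1507 alternative log2 fold changes for 53 named genes, 10 had the other sign. They were Ddc (0.10 in lane 1), Aldh1a1 (0.52 in lane 1, 0.029 with the replicate block, 0.21 at a threshold of 1 read, 0.058 without Sox6 or Aldh1a7 cells, and -0.44 to 0.033 without single mice, above 0 only without mouse 4), Lpl (-0.11 without Sox6 or Aldh1a7 cells), Grp and Cck (-0.24 and -0.75 without Otx2 or Neurod6 cells) and Gad2 (-0.31 without Gad1 or Gad2 cells). The 9 partner genes with an exact p under 0.05 became 4 with 5 cells a side, 6 at a threshold of 1 read, 10 at 50 reads, 10 after thinning and 6 to 9 without single mice. At 1 read, set for Slc17a6 and the partner gene alike and without mouse 7, Ndnf, Cbln4, Calb1, Gpr83 and Aldh1a7 were no longer under 0.05, the difference for Gpr83 was -5.70 points, and Lypd1 and Slc17a8 came under 0.05. Drd2 and Calb2 were added and Calb1 lost at 50 reads, and Drd2 was added after thinning. The difference by sex in the share of positive cells was -0.765 to -13.9 points without single mice. It was -6.68 points at a threshold of 1 read, -12.8 at 50 reads, -14.4 after thinning and -5.27 with Th from 100 CPM (exact permutation p from 0.304 to 0.696). Differences in depth were 51236 reads, 228.7 detected genes and 0.204 ng/µl at a threshold of 1 read and -11.5 detected genes with 5 cells a side. Without single mice they were -25819 to -5920 reads, -89.2 to 169 detected genes and -0.364 to 0.247 ng/µl. Groups as small as 4 cells limit what a mouse's sum can show.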
